A study of Homo sapiens with 6 samples.

Results

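The genes described here encode the protein parts of the spliceosome and the RNA-binding proteins that guide it. They were taken as a list of 53 symbols of snRNP, SF3, PRPF, SR protein and hnRNP genes, and all 53 were found by symbol among the 62443 genes of the deposited table. The RNA came from HGC-27, an established human gastric cancer line. It was sequenced in 3 libraries named Con, given as untreated in the labels (per the study's methods, the control cells received the peptide's buffer), and in 3 libraries of cells given GLUP. GLUP is a cyclic peptide modelled on the stretch of VGLL4 that contacts the transcription factor TEAD4, and the study sequenced these cells to find pathways that the peptide altered. The labels give no dose or time, and the length of treatment differs between the methods and the results text of the study. All 6 libraries are of a single line, and p-values measure the spread between them. The study's methods speak of biological replicates for the RNA, but the labels do not say which libraries came from separate cultures, so part of that spread may be technical. In bulk RNA, a lower level can mean fewer cells with a transcript or less of it per cell, and these cannot be told apart.

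The spliceosome removes introns from pre-mRNA. It is built from small nuclear ribonucleoproteins (snRNPs), each a short uridine-rich RNA with a ring of Sm proteins and proteins of its own: U1 binds the donor site, U2 binds the branch point with the help of U2AF and the SF3 proteins, and the tri-snRNP of U4, U6 and U5 joins before the catalytic core is formed. SR proteins, rich in arginine and serine, mostly promote the use of nearby splice sites, whereas heterogeneous nuclear ribonucleoproteins (hnRNPs) coat the nascent transcript and often repress them.

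Levels are given as FPKM, fragments scaled to transcript length and library size. The libraries were not alike. The mean correlation of Con 2 with the remaining libraries was 0.898, and the same value for every other library was between 0.954 and 0.964. For Con 2 the relative depth, read from the lowest values, was also the smallest, at 0.835 of that of GLUP 2. The deviation of a gene from its mean followed the GC content of its transcript, with a Spearman correlation over 7279 genes of -0.34 in Con 1 and -0.60 in Con 2 but 0.46 in Con 3 and 0.34 to 0.54 in the GLUP libraries, so that Con 3 stood with the GLUP libraries in this respect. The epithelial markers EPCAM and CDH1 were at or below 0.124 FPKM in all 6 libraries. The sum of the 5 epithelial markers ran from 2.97 to 3.70 FPKM in Con and from 5.18 to 6.06 in GLUP. VIM, a mesenchymal filament, reached 222 to 387 FPKM. The other mesenchymal markers listed were low, with CDH2 at 0 to 0.0508 FPKM and FN1 at 0.644 to 3.25. CD3E, ALB, CDH5 and HBB were listed at 0 throughout, and the fibroblast proteoglycan DCN was at 16.03 to 41.3. The part of depth, base composition and these markers in the results below was not tested, beyond the values given without Con 2 or Con 3 and after removal of the GC trend.

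The members spanned more than 3 orders of magnitude, although many of them occur once per particle. SNRPG (2632 FPKM, mean of 6 libraries), SNRPD2 (2513) and SNRPE (927) stood at the top, and 5 genes had means under 1 FPKM and were not tested: SF3A1 (0.786), SF3A2 (0.476), SF3B4 (0.838), U2AF2 (0.501) and PRPF19 (0.397). By class, the median of the mean levels was 169 FPKM for the Sm core, 79.7 for the hnRNPs, 32.4 for the 8 tested U2 and SF3 genes, 19.1 for the SR proteins, 5.90 for the tri-snRNP and 1.34 for the U1 proteins. Levels were lower for longer transcripts (Spearman -0.37 over 48 members, against -0.31 over 7279 genes).

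Of the 48 members tested, 17 had a higher and 31 a lower mean in GLUP than in Con on the log2(FPKM + 1) scale, and none passed limma at an adjusted p of 0.05, where 0% of all 7406 genes tested did. The smallest adjusted p of a member by limma was 0.194. The share with a lower mean, 64.6%, was near the 65.5% of all genes tested, and the share with a higher mean, 35.4%, was near their 34.5%. The split was 29 higher and 19 lower with the GC trend removed, and 24 and 24 with libraries scaled by a trimmed mean of log ratios. A difference of over 2-fold on the log2 scale was seen upwards in SNRPB alone (2.08%, against 2.94% of all genes) and downwards in HNRNPM, SRSF6, SRSF11 and TXNL4A (8.33%, against 6.81%). At an unadjusted limma p under 0.05 stood 5 members that were higher in GLUP (10.4%, against 4.46% of all genes), namely SNRPB, SNRPC, SNRNP70, SNRNP200 and HNRNPA2B1. In the other direction stood 9 members (18.8%, against 17.2%), namely SF3B1, SNRPA1, TXNL4A, SNRNP27, SRSF4, SRSF6, SRSF11, HNRNPM and HNRNPU.

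The 3 GLUP values lay above all Con values in 11 members (22.9%, against 7.55% of all genes tested) and below all of them in 10 (20.8%, against 22.7%). The same counts without Con 2 were 13 and 13, against 9.21% and 28.7% of all genes, and with the trimmed mean scaling they were 14 and 7, against 14.3% and 14.4%. After removal of the GC and length trend they were 12 and 9, against 14.4% and 13.8% of the 7279 genes. Without Con 3 they were 11 and 22, against 13.7% and 43.1% of all genes. At an unadjusted limma p under 0.05, removal of the GC trend left 10 members higher and 9 lower, against 8.79% and 9.23% of the 7279 genes, and the trimmed mean scaling left 12 and 5, against 10.2% and 8.83% of all genes. The median log2 fold change of the members was -0.27, against -0.23 for all genes tested, so single values below are to be read against that shift, and values called relative have it subtracted.

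Con 3 decided whether genes were called. Without it, 1367 of all genes (18.5%) passed limma at an adjusted p of 0.05, 163 of them higher in GLUP (2.20%) and 1204 lower (16.3%). Among the members 9 passed: SNRPB, SNRPC and PRPF31 were higher, and SF3B1, SNRPA1, TXNL4A, SRSF6, SRSF11 and HNRNPU were lower. In this comparison Con was represented by Con 1 and Con 2, the libraries whose values leaned towards genes of low GC content.

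By the annotation on GRCh37, the build of the identifiers' suffixes, the members with the largest differences in either direction are the protein-coding genes SNRPB (ENSG00000125835, chr20:2442280-2451499, minus strand) and SRSF6 (ENSG00000124193, chr20:42086533-42094686, plus strand). The member with the smallest limma p is HNRNPM (ENSG00000099783, chr19:8509651-8553998, plus strand).

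**Figure D1:**
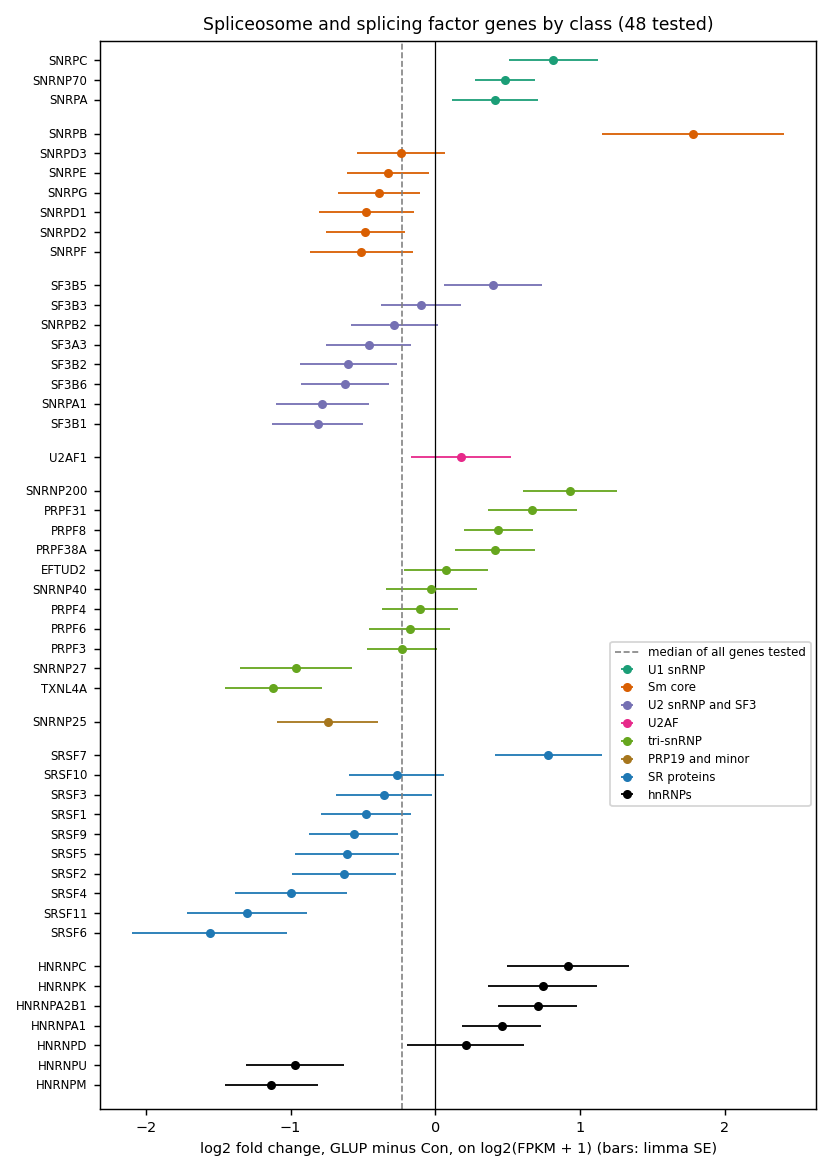
Log2 fold change of GLUP against Con for each of the 48 members tested, grouped and coloured by class; the horizontal axis is the difference on log2(FPKM + 1), points are limma estimates, bars are their standard errors, and the dashed line is the median of all genes tested (-0.23). SNRPB (1.78) lies farthest to the right and SRSF6 (-1.56) farthest to the left; the U1 genes and 5 of the 7 hnRNPs lie right of 0, and 9 of the 10 SR genes lie left of it, of which 3 were above 0 with the GC trend removed.

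The 3 proteins particular to U1 had higher means in GLUP, with a class median of 0.48 on the log2 scale (0.71 relative to all genes). SNRPC (U1-C), which helps U1 hold the donor site, was measured at 164, 111 and 206 FPKM in Con and at 262, 265 and 298 in GLUP. Every GLUP library was above every Con library, a log2 fold change of 0.82 with a limma standard error of 0.31 (adjusted p = 0.199). Con 2 was the lowest library, and the log2 fold change without it was 0.58. SNRNP70 (U1-70K), named here after its values were seen, was at 0.729, 0.974 and 0.892 in Con and at 1.70, 1.29 and 1.84 in GLUP. These groups did not overlap either, at a log2 fold change of 0.48 ± 0.21 (limma SE), but the gene sat close to the minimum level for testing and its difference shrank to 0.08 with the GC trend removed. SNRPA, at 1.51, 0.238 and 1.43 in Con and 1.601, 1.90 and 1.37 in GLUP, overlapped between the groups, and its log2 fold change of 0.41 became 0.08 without Con 2.

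The Sm ring is common to the spliceosomal snRNPs other than U6, and its 7 genes did not share a direction. SNRPB, which encodes SmB and its variants, was at 74.9, 14.7 and 118 FPKM in Con and at 209, 171 and 157 in GLUP. Con 2 was far below the other libraries, and all GLUP libraries exceeded all Con libraries. The log2 fold change was 1.78 ± 0.63 (limma SE; 2.01 relative to all genes; adjusted p = 0.198), it came to 0.91 without Con 2, and without Con 3 it was 2.37 with an adjusted limma p of 0.0434.

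The other 6 Sm genes had lower means in GLUP (log2 fold changes of -0.24 to -0.51), of which SNRPG, SNRPE, SNRPD1 and SNRPD3 were above 0 with the GC trend removed and SNRPD3 also with the trimmed mean scaling or centring on the median. SNRPG was at 2558, 4170 and 2318 FPKM in Con and at 1815, 2283 and 2652 in GLUP. SNRPF was at 88.3, 115 and 62.1 in Con and at 44.3, 59.3 and 82.0 in GLUP. Both overlapped between the groups, with log2 fold changes of -0.39 and -0.51 and the highest value in Con 2, without which they were -0.13 and -0.30. SNRPD2, named after its values were seen, was at 2665, 3830 and 2329 in Con and at 1616, 2352 and 2285 in GLUP (log2 fold change -0.48 ± 0.27, limma SE, and -0.28 without Con 2), and GLUP 2 lay just above Con 3. Several Sm genes have expressed processed copies, among them SNRPEP4 at a mean of 431 FPKM and SNRPGP10 at 153, so how reads were split between them is uncertain. Adding the copies gave -0.29 for SNRPE and -0.37 for SNRPG.

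Stretches upstream of SNRPB, SNRPD2 and SNRPG of the Sm ring and of SNRPC of U1 are shown as examples of a shared motif. The Sm and U2 classes held most of the promoters with it, but no U2 promoter is printed. RefSeq promoters (GRCh38.p14, 250 bases before to 50 after the start) were matched for 48 of the 53 members. The 48 include the members under 1 FPKM that were not tested, so shares of them and of tested genes are of unlike sets. CCGGAAG, the letters of an ETS-type site, read on both strands, was present in 20 of the 48 (41.7%), against 10.7% of all 27305 promoters and 23.5% of the 5408 promoters of tested genes. It was in 8 of 10 U2 and SF3 promoters and 4 of 6 Sm promoters, but in 2 of 9 SR promoters and 1 of 6 hnRNP promoters. Among the 20, SF3A1, SF3A2, SF3B4 and U2AF2 were not tested. GGAATG, the core letters of a TEAD-type site on both strands, was in 2 of the 48 (4.17%), HNRNPC and the untested PRPF19. It was in 14.0% of all promoters and 10.7% of those of tested genes. A match describes letters in this window and is no evidence of binding. The 4 stretches below are 100 bases each, given in the direction of transcription: for SNRPB (chr20:2470790-2470889, minus strand), SNRPD2 (chr19:45692317-45692416, minus strand) and SNRPG (chr2:70293459-70293558, minus strand) they end at the base before the start, and for SNRPC (chr6:34757255-34757354, plus strand) they cover positions -250 to -151. Capitals mark CCGGAAG or, on the other strand, CTTCCGG, which overlap in SNRPC.
SNRPB: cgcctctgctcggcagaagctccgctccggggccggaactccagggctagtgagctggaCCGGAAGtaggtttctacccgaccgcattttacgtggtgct
SNRPC: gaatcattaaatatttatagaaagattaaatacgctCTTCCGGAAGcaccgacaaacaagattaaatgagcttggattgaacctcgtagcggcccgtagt
SNRPD2: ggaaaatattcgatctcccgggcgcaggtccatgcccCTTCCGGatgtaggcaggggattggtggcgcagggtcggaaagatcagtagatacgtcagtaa
SNRPG: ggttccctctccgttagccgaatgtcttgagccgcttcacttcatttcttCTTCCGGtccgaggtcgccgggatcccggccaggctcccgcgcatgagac
Members with the motif lay on both sides, and an association with direction was not tested. They included SNRPB and SNRPC as well as SNRPD2 and SNRPG, and among tested members with a matched promoter 4 of the 16 that held the motif and 12 of the 27 that did not had higher means in GLUP. The medians of their log2 fold changes were -0.42 and -0.10. Of the other motifs searched on both strands, GGGCGG (an SP1-type site) was in 62.5% of member promoters and 69.7% of those of tested genes, TATAAA in 10.4% and 5.70%, and an NRF1-type palindrome in 27.1% and 17.9%.

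The U2 and SF3 genes had a class median of -0.53 (-0.30 relative to all genes), 7 of the 8 tested having lower means in GLUP, a number that includes SNRPB2 and SF3B3, both above 0 with the GC trend removed and with the trimmed mean scaling, SF3B3 also under quantile normalization and centring on the median. SF3B1, the large subunit that clasps the branch site, was at 8.38, 13.1 and 5.95 FPKM in Con and at 4.75, 4.28 and 4.59 in GLUP. SNRPA1, a U2 protein that is a partner of SNRPB2, named after its values were seen, was at 166, 223 and 115 in Con and at 88.2, 94.7 and 98.6 in GLUP. In these genes the GLUP libraries lay close together and below every Con library, with log2 fold changes of -0.81 ± 0.32 and -0.78 ± 0.32 (limma SE; adjusted p = 0.202 and 0.207). With the GC trend removed the fold changes were -0.34 and -0.50, and without Con 2 they were -0.54 and -0.55. Without Con 3 the adjusted limma p was 0.0409 for SF3B1 and 0.0439 for SNRPA1. SF3B6, the small subunit at the branch adenosine, was at 391.9, 441 and 260.5 in Con and at 225, 203 and 269 in GLUP (log2 fold change -0.62, and -0.14 with the GC trend removed), with Con 3 inside the GLUP range. SF3B5 was the exception in direction, at 44.7, 70.4 and 58.5 in Con and at 59.4, 66.7 and 108 in GLUP, and its groups overlapped (log2 fold change 0.40, and 0.14 without GLUP 3).

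The partners of SF3B1 differed widely in level. SF3A3 had a mean of 33.7 FPKM, whereas its complex partners SF3A1 and SF3A2 were at 0.534 to 0.994 and 0 to 0.860. SF3A2 overlaps PLEKHJ1 on the other strand, and the counting is not stated to use strand. U2AF, the dimer that reads the acceptor site, was described from U2AF1 alone. It was at 5.90, 11.6 and 7.82 in Con and 12.4, 6.31 and 10.2 in GLUP, with groups that overlapped fully and a log2 fold change of 0.18 that turned to -0.028 without Con 1 and -0.015 without GLUP 1. A near-identical gene, ENSG00000275895, had a mean of 38.7 FPKM and is placed over U2AF1 on the same strand in the annotation on GRCh37. The sum of both gave -0.18, so the value of U2AF1 itself is uncertain, its direction included. U2AF2, its large partner, was at 0.349, 0.149 and 0.760 in Con and at 1.10, 0.161 and 0.488 in GLUP.

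The tri-snRNP genes diverged. Their median was -0.03 (0.20 relative to all genes), with 5 higher and 6 lower, and it was above 0 with the GC trend removed and under each other scaling. SNRNP200 (Brr2), the helicase that unwinds U4 from U6, was at 1.79, 1.01 and 2.01 FPKM in Con and at 4.32, 5.83 and 2.23 in GLUP. All GLUP libraries were above Con, though GLUP 3 only by a little (log2 fold change 0.93 ± 0.32, limma SE; adjusted p = 0.198). Con 2 was the lowest library, and without it the log2 fold change of SNRNP200 was 0.76. PRPF8, the scaffold of the catalytic core, and PRPF31, a protein of the U4 and U6 particle, also had groups that did not overlap, at log2 fold changes of 0.43 and 0.67. Without Con 2 these were 0.26 and 0.43, and with the GC trend removed PRPF31 was at 0.38. Both genes were named after their values were seen. PRPF31 overlaps TFPT on the other strand (mean 5.97 FPKM, against 5.90 for PRPF31).

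Other tri-snRNP genes were lower. TXNL4A (Dim1), a small U5 protein, was at 23.2, 36.03 and 17.6 FPKM in Con and at 8.60, 11.2 and 12.9 in GLUP. The groups were clearly apart, with a log2 fold change of -1.12 ± 0.34 (limma SE; -0.89 relative to all genes; adjusted p = 0.194). It was -0.94 with the GC trend removed, and the adjusted limma p was 0.0342 without Con 3. SNRNP27, a tri-snRNP protein with an SR-like domain, was at 49.2, 89.3 and 35.2 in Con and at 20.9, 28.7 and 33.1 in GLUP. Con 3 lay only just above GLUP 3, and the log2 fold change of -0.96 shrank to -0.34 with the GC trend removed and to -0.60 without Con 2. The other 6 genes placed in this class (PRPF3, PRPF4, PRPF6, PRPF38A, SNRNP40 and EFTUD2) had log2 fold changes between -0.23 and 0.41. The placing of PRPF38A (0.41) is a choice of grouping. In the comparison list below, PRPF38B was placed with genes of the B complex, a stage of spliceosome assembly.

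The remaining pair of core genes gave little. SNRNP25, a protein of the minor spliceosome, was at 31.0, 33.3 and 18.6 FPKM in Con and at 11.1, 16.8 and 20.1 in GLUP (log2 fold change -0.74), and only GLUP 3 passed a Con library. PRPF19, the ubiquitin ligase of the complex that remodels the spliceosome for catalysis, was at 0.211, 0.324 and 0.163 in Con and at 0.336, 0.306 and 1.04 in GLUP, below the minimum for testing.

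Among classes with more than 1 tested gene, the SR genes had the lowest median, -0.59 (-0.36 relative to all genes, and -0.33 with the GC trend removed or the trimmed mean scaling), and 9 of 10 had lower means in GLUP, of which SRSF1, SRSF3 and SRSF10 were above 0 with the GC trend removed and SRSF10 also with the trimmed mean scaling. SRSF6 was at 30.9, 65.4 and 13.6 FPKM in Con and at 12.8, 12.6 and 5.44 in GLUP. Con 3 lay just above the GLUP libraries and far below the other Con libraries. The log2 fold change was -1.56 ± 0.53 (limma SE; adjusted p = 0.198). It was -1.02 without Con 2 and -2.11 without Con 3 (adjusted p = 0.0327 by limma across all genes). SRSF11, which binds U2AF, had the same order of libraries in Con, at 10.2, 19.7 and 5.09, and lay at 3.31, 4.17 and 3.27 in GLUP. Its log2 fold change was -1.30 ± 0.41 (limma SE; adjusted p = 0.194), -0.77 with the GC trend removed and -0.86 without Con 2.

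SRSF7 was the single SR gene with a higher mean in GLUP. It was at 71.2, 42.3 and 64.4 FPKM in Con and at 83.9, 75.7 and 158 in GLUP. The groups did not overlap, with a log2 fold change of 0.78 ± 0.37 (limma SE; adjusted p = 0.246), which was 0.45 to 0.98 when any library was left out. The GC content of its transcript, 40.0%, was close to the 39.8% of SRSF6. Of the other SR genes, SRSF9 lies within a crowded locus, overlapping DYNLL1 on the other strand (mean 1273 FPKM, against 2.29 for SRSF9), and its value is uncertain.

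**Figure D2:**
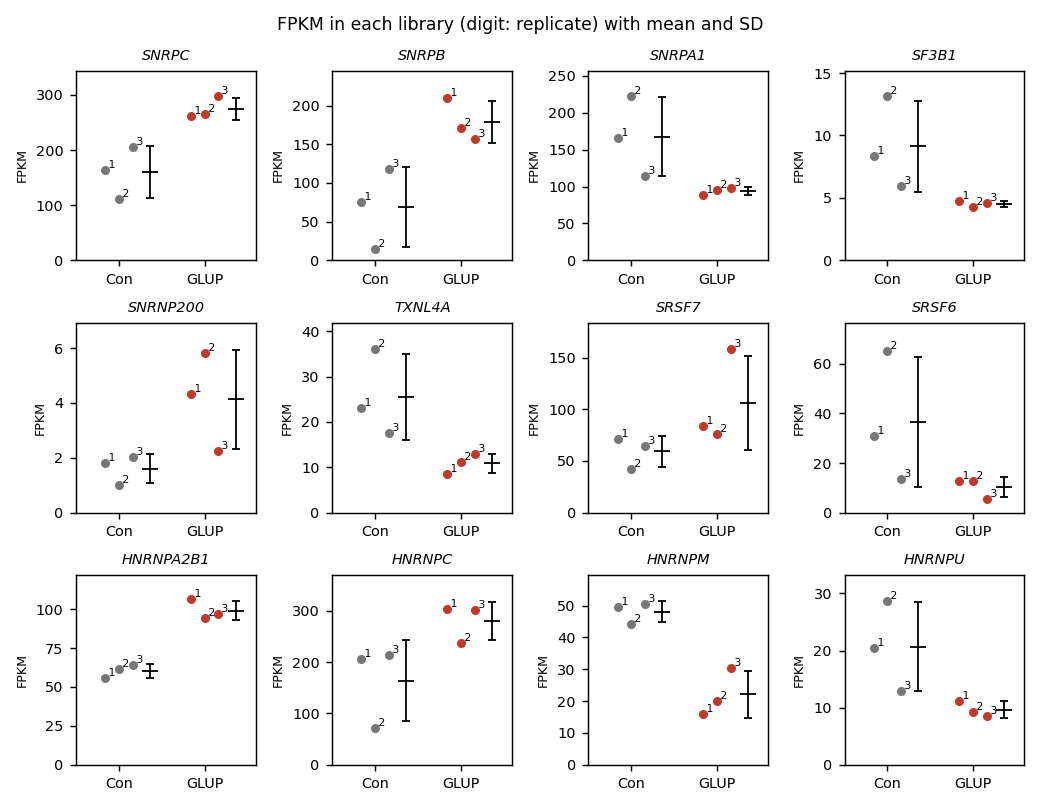
FPKM of 12 members in each library, with Con and GLUP side by side, digits marking the replicate and bars the mean and SD of 3 libraries; each panel has its own axis from 0. Con 2 is the lowest Con library for SNRPC, SNRPB, SNRNP200, SRSF7, HNRNPC and HNRNPM. It is the highest for SNRPA1, SF3B1, TXNL4A, SRSF6 and HNRNPU. HNRNPA2B1 and HNRNPM have Con libraries that lie close together.

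The 7 listed hnRNPs split into 5 genes with higher and 2 with lower means in GLUP, at a class median of 0.46 (0.69 relative to all genes). This direction held for the listed genes only. Of 27 other hnRNPs and splicing regulators tested, from the comparison list below, 8 had higher and 19 lower means in GLUP. Their median log2 fold change was -0.55, with groups apart upwards in 1 and downwards in 8 (7.55% and 22.7% of all genes). HNRNPC, which binds uridine tracts, was at 207, 72.3 and 213 FPKM in Con and at 304, 238 and 301 in GLUP. All GLUP libraries were above Con, but the low Con 2 carried much of the log2 fold change of 0.92 ± 0.42 (limma SE), which was 0.41 without that library. HNRNPA2B1, named after its values were seen, was at 55.6, 61.5 and 63.9 in Con and at 106, 94.4 and 96.5 in GLUP. Here both groups were tight and well apart, at a log2 fold change of 0.71 ± 0.27 (limma SE; adjusted p = 0.202), and of 0.65 to 0.75 when any library was left out. HNRNPA1, a repressor of many exons, and HNRNPK, which binds cytidine tracts, were apart in the same direction (0.46 and 0.74). Without Con 2 the value of HNRNPK was 0.33. HNRNPD overlapped (0.21), and its value was -0.0034 without Con 1 and -0.0020 without Con 3.

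HNRNPM and HNRNPU went the other way. HNRNPM was at 49.5, 44.2 and 50.4 FPKM in Con and at 15.9, 19.9 and 30.4 in GLUP. The lowest Con library was well above the highest GLUP library, Con 2 was not apart from the other Con libraries, and the limma p of 0.00543 was the smallest of all members (log2 fold change -1.13 ± 0.32, SE; adjusted p = 0.194). The fold change was -1.15 with the GC trend removed and between -1.38 and -0.93 when any library was left out. HNRNPU, a nuclear scaffold protein, was at 20.5, 28.6 and 13.0 in Con and at 11.2, 9.32 and 8.46 in GLUP (-0.97 ± 0.34, limma SE; adjusted p = 0.198). Its groups were apart by a narrow margin, and the fold change was -0.52 with the GC trend removed. HNRNPU overlaps COX20 on the other strand (mean 82.2 FPKM) and HNRNPA2B1 overlaps CBX3 (21.6), which leaves their values open to reads of those genes where strand was not used.

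Several of the hnRNP differences ran against the trend with base composition. Over all genes tested the log2 fold change increased with GC content (Spearman 0.56, 7279 genes), whereas over the 48 members it was 0.20. HNRNPC, HNRNPA2B1 and HNRNPK, with 40.2%, 38.4% and 41.6% GC, were higher in GLUP, and HNRNPM, with 53.1%, was lower. After removal of the GC and length trend the hnRNP median was 0.90, and HNRNPA2B1 alone moved to 1.27.

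**Figure D3:**
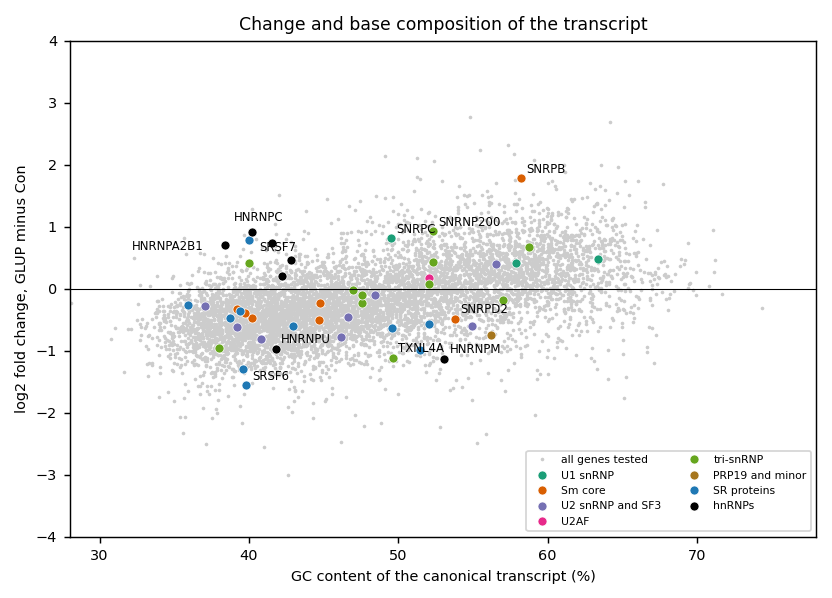
Log2 fold change of GLUP against Con, on log2(FPKM + 1), against the GC content of the canonical transcript in percent, for all genes tested (grey) and for the members (coloured by class). The grey cloud climbs from left to right (Spearman 0.56); HNRNPC, HNRNPA2B1 and SRSF7 lie above it on the left, and HNRNPM, TXNL4A and SNRPD2 lie towards its lower edge in the middle.

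Ratios between members of the same library do not depend on how libraries were scaled. The pairs were chosen after their values were seen, so the ratios are a description. HNRNPA2B1 over HNRNPU was 2.71, 2.15 and 4.92 in Con and 9.46, 10.1 and 11.4 in GLUP, and the transcripts differ little in GC content (38.4% and 41.8%). HNRNPC over HNRNPM was 4.18, 1.64 and 4.23 in Con and 19.0, 11.95 and 9.89 in GLUP. SNRPC over SNRPA1, a U1 protein over a U2 protein, was 0.992, 0.499 and 1.80 in Con and 2.98, 2.80 and 3.02 in GLUP. In each pair every GLUP library exceeded every Con library, which with 3 libraries against 3 cannot give an exact permutation p below 0.1. Within the Sm ring, SNRPB over SNRPD3 was 0.453, 0.0623 and 0.777 in Con and 1.57, 1.14 and 0.872 in GLUP. The margin between Con 3 and GLUP 3 was small there, and Con 2 stood far below. SRSF7 over SRSF6 was 2.30, 0.647 and 4.74 in Con and 6.56, 5.99 and 29.1 in GLUP, the last value resting on the high SRSF7 and low SRSF6 of GLUP 3. GC content was 58.2% for SNRPB and 44.8% for SNRPD3, and in the other direction 40.2% for HNRNPC and 53.1% for HNRNPM. It was 49.5% and 46.2% for SNRPC and SNRPA1, and 40.0% and 39.8% for SRSF7 and SRSF6. Ratios are not free of the GC trend, and its part in them was not tested.

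**Figure D4:**
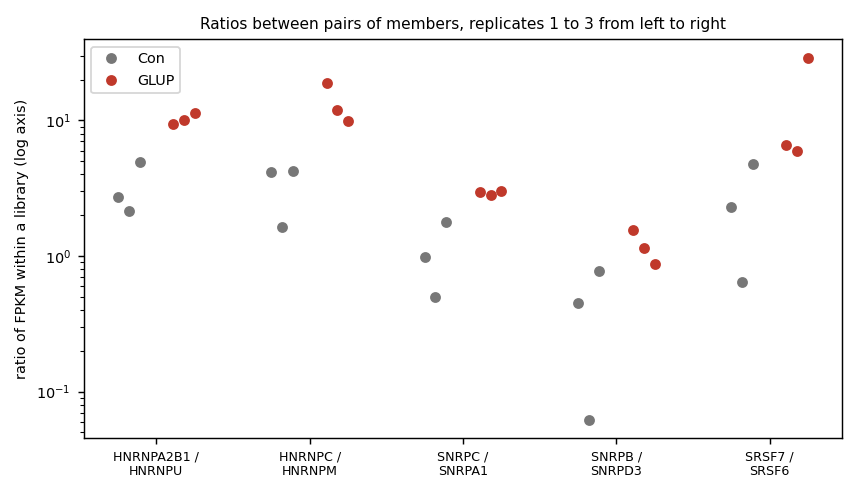
Ratios of FPKM between pairs of members within each library on a log axis, Con and GLUP side by side, with replicates 1 to 3 from left to right. The GLUP libraries lie above the Con libraries in all 5 pairs, by the widest margin for HNRNPC over HNRNPM (9.89 and above, against 4.23 and below).

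The other genes of the pathway served as a comparison: 131 further genes of the spliceosome, its assembly and its regulators. Of the 115 tested, 27 had higher and 88 lower means in GLUP, with a median log2 fold change of -0.41. None passed limma at an adjusted p of 0.05, and 0 higher and 23 lower were at an unadjusted p under 0.05 (4.46% and 17.2% of all genes). Groups were apart upwards in 5 and downwards in 32 of the 115, where 7.55% and 22.7% of all genes were. The lowest 3 were HNRNPH1, HNRNPL and SYF2, in each of which Con 2 stood far above the rest. HNRNPH1 was at 88.9, 431 and 64.9 FPKM in Con and at 59.7, 48.2 and 27.0 in GLUP, and its log2 fold change of -1.65 was -0.82 without Con 2. HNRNPL was at 10.0, 78.01 and 13.9 in Con and 6.16, 7.30 and 7.05 in GLUP (-1.59, and -0.71 without Con 2). SYF2, of the catalytic complex, had a log2 fold change of -1.29, and -0.69 without Con 2. The highest 3 were ZMAT5 (0.93), RNPS1 (0.90) and PUF60 (0.76), of which ZMAT5 alone had groups that did not overlap and all 3 came to between 0.30 and 0.40 without Con 2. Without Con 3, 1 of the 115 passed upwards and 21 downwards at an adjusted limma p of 0.05, where 2.20% and 16.3% of all genes did.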

How the data were processed

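Total RNA of 6 HGC-27 samples, 3 Con and 3 GLUP by sample title, was sequenced by the authors on an Illumina instrument. The authors deposited 1 table of FPKM values per gene. The submitters' processing notes name HISAT2, Cufflinks, RSEM and GRCh38.p10, without roles, whereas the gene identifiers carry suffixes of GENCODE models lifted to GRCh37; versions are not given in the sources used here. Read counts could not be recovered from the values, so absolute depth is unknown and only a relative depth (0.835 to 1) was estimated. FPKM sums were 909735 to 965147 per library.

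The 49 pseudoautosomal copies, all at 0, were set aside. The 7406 genes averaging 1 FPKM or more across all samples were tested on log2(FPKM + 1), a scale that understates differences of low genes, with limma 3.58.1 in R 4.3.3 (two-sided, trended prior variance, Benjamini-Hochberg over all 7406). Standard errors are those of limma. Length and GC content came from canonical GENCODE transcripts (7279 genes, 98.3%), and the GC trend was removed by loess (span 0.5). Promoters came from RefSeq, GRCh38.p14. Summaries used Python 3.11.15, and the fit was tested on simulated data. Alternatives were another pseudocount, other filters and scalings, a replicate block, and each library left out.

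The members and lists were chosen with earlier results of these data known. Named with values were, in each class, the members with the highest and lowest log2 fold change and the highest level, both members of classes of 2, the 8 members with the smallest p, and the 3 highest and 3 lowest of the other spliceosome genes. Any further gene named was chosen after its values were seen.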

Additional observations from a re-analysis of the deposited data

How the results depend on the processing

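No member passed an adjusted limma p of 0.05 under any alternative other than leaving out Con 3. Over all genes, 2 passed after removal of the GC and length trend and 1 each after that removal plus the replicate block, with the replicate block alone, with an untrended prior and with a minimum of 5 FPKM. Leaving out each library in turn gave 0 to 1367 genes and 0 to 9 members, the highest of each without Con 3. Members at an unadjusted p under 0.05 that were higher in GLUP (5) numbered 10 with the GC trend removed, with or without the block, 10 under quantile normalization, 12 when centred on the median or scaled by the trimmed mean, 3 with a minimum of 5 FPKM and 1 to 9 with a library left out. Those that were lower (9) numbered 5 when centred or under the trimmed mean, and 4 to 13 with a library left out. The shares of all genes were 8.79% higher and 9.23% lower with the GC trend removed, and 10.2% and 8.83% under the trimmed mean. For the other settings the share of all genes is not given here, so those counts are not read as a result about the members. Members with groups apart numbered 11 to 13 upwards and 10 to 22 downwards with a library left out. The 22 downwards were reached without Con 3 (45.8%, near the 43.1% of all genes). The 13 upwards were reached without Con 2 (27.1%, against 9.21% of all genes). Shares of all genes with another library left out are not given here.

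The members' median (-0.27) was 0.11 with the GC trend removed, with or without the block, -0.011 centred, -0.10 under quantile normalization, -0.0041 under the trimmed mean, and -0.44 to -0.18 with a library left out. The Sm median (-0.39) was 0.067, with or without the block, -0.13 centred, -0.088 under the trimmed mean and -0.55 to -0.24 with a library left out. The U1 median (0.48) was 0.16 with the GC trend removed, with or without the block, 0.75 centred, 0.82 with a pseudocount of 0.1 and 0.46 to 0.59 with a library left out; a minimum of 5 FPKM left only SNRPC and gave no class median. The U2 and SF3 median (-0.53) was -0.15, with or without the block, -0.27 centred, -0.28 with no filter and under quantile normalization, -0.24 under the trimmed mean and -0.61 to -0.30 with a library left out. The hnRNP median (0.46) was 0.90, with or without the block, 0.72 centred, 0.58 under quantile normalization, 0.76 under the trimmed mean and 0.38 to 0.51 with a library left out. The tri-snRNP median (-0.03) was 0.16, with or without the block, 0.24 centred, 0.25 under quantile normalization, 0.26 under the trimmed mean and -0.18 to 0.17 with a library left out. The SR median (-0.59) was -0.33 with the GC trend removed and under the trimmed mean, -0.32 centred, -0.36 under quantile normalization and -0.83 to -0.34 with a library left out.

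Of 302 values for 19 named members, 291 kept direction and side of the threshold, 7 passed it (without Con 3), and 4 reversed: SNRPG at 0.067 with the GC trend removed, with or without the block, and U2AF1 at -0.028 without Con 1 and -0.015 without GLUP 1 (up to 0.42 with another library left out). The cause was not tested. Deviations from the group means correlated between same-numbered libraries at 0.13, -0.01 and -0.17. With 3 libraries per group these values cannot settle whether replicate numbers pair the samples, and the labels do not say. The replicate block called 1 gene and 0 members, with 4 members higher and 8 lower at an unadjusted limma p under 0.05. Without the share of all genes at that p under the block, these counts are not read as a result about the members. Depth limits genes near 1 FPKM, such as SNRNP70 and SNRPA, whose read support is unknown.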
